A study of Malus domestica with 34 samples.

Results

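In young apple seedlings, 31 of 52311 gene identifiers had more RNA in leaves after a first drought than in well-watered leaves, and about as much RNA in older well-watered leaves as in younger ones. They were chosen from measured values, on the scale log2(CPM + 1), where CPM is the count of a gene scaled to a common library total. The mean of 3 droughted leaf libraries had to exceed that of 3 well-watered leaf libraries of the first sampling by at least 1.5, with no overlap between the groups. The mean of well-watered leaves had to change by no more than 0.5 between the first and the third sampling. In all, 248 genes met the drought criteria: 213 of them also rose with age by more than 0.5, 4 fell by more than 0.5, and the 31 described here lay between.

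The plants were seedlings of GDDH18, a doubled haploid line of 'Golden Delicious' apple (Malus domestica), whose chromosome copies are identical. Watering regimes began at 12 weeks of age. Well-watered plants (64) were held near 80% soil water content throughout, and plants of the drought regime (61) were repeatedly held at 45% for 3 weeks and then rewatered for 3 weeks. Leaves and roots of both regimes were sampled 3 times: once the first drought was over, once the third was over, and in the next year, following a winter and ahead of any new stress. This gave 12 groups. Each group had 3 libraries, 1 from each of 3 sowing blocks a week apart, except the next-year roots with 2 libraries per regime. Well-watered plants of a sampling had the same age as the drought plants beside them, so the regimes are compared at matched age. How many plants went into a library is not stated in the labels.

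Leaves that lose water accumulate the hormone abscisic acid, which closes the stomata through guard-cell ion channels and switches on genes through the PYR/PYL receptors, SnRK2 kinases and ABF/AREB transcription factors. Products of the genes induced in this way include late embryogenesis abundant proteins, enzymes of osmolyte synthesis, sugar and water transporters and protein phosphatases that feed back on the signal. Many genes of this response are also switched on as a leaf grows old, because abscisic acid promotes senescence as well. This is background from other plants: the identifiers here carried no names, so none of these roles is assigned to any of the 31 genes, and the tissue labels could not be checked against marker genes.

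The 18 leaf libraries held between 25974815 and 68239819 counts and the 16 root libraries between 29963017 and 60194325. Libraries did not always sort by regime: the library most similar to each was of its own group for 6 of 18 leaf and 2 of 16 root libraries. The root libraries of block 2 at the first sampling stood apart. Their deviations from their group means correlated at r = -0.80 across tested genes. The well-watered library of this pair had 115 genes at least 8-fold above both other libraries of its group. The drought library of the pair had 7 such genes, and libraries outside the pair had up to 93. In several of the 31 genes the order of this pair was the reverse of that in the other blocks. Whether the labels of the 2 libraries were exchanged was not tested, and an exchange would turn the sign of every block 2 root difference of that sampling. For differences over the 31 genes that use this pair, medians and counts by size on the log2(CPM + 1) scale are given with and without it. Other root summaries include the pair, save where stated. Among leaf libraries, those of block 3 at the third sampling had the most genes at least 8-fold above both others of their group. There were 90 in the drought library and 84 in the well-watered one, which was read when the genes were chosen. Their mean correlations with their own groups were 0.940 and 0.932.

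In leaves after the first drought the 31 genes were higher than in well-watered leaves by the terms of their choice, so this contrast is a description only. Their mean over the genes was 4.56, 4.95 and 4.59 in the droughted libraries of blocks 1, 2 and 3, on the log2(CPM + 1) scale. It was 2.60, 3.42 and 2.71 in the well-watered libraries of the same blocks. The group means were 4.70 ± 0.22 and 2.91 ± 0.45 (SD, n = 3 each). The well-watered library of block 2 stood highest of its group for 28 of the 31 genes, against 23.7% of all tested genes.

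**Figure D1:**
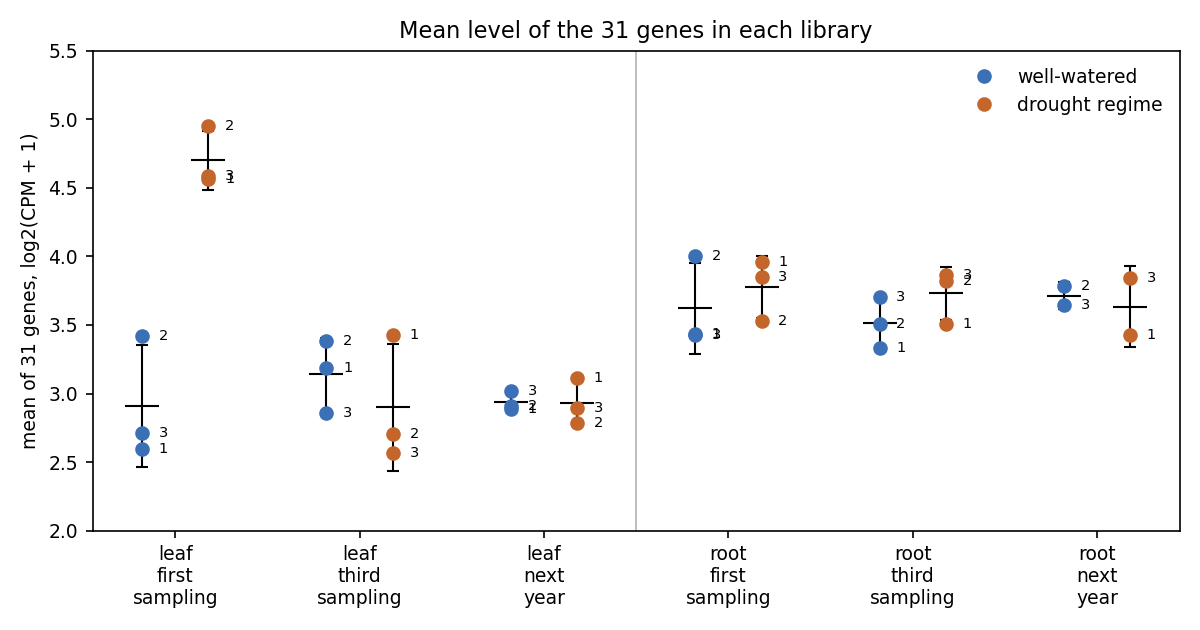
Mean of the 31 genes in each of the 34 libraries, on the log2(CPM + 1) scale, by tissue and sampling. Points are libraries, small numbers are sowing blocks, and bars are group means with SD. The droughted leaves of the first sampling sit at 4.56 to 4.95, above all other leaf libraries, which sit at 2.57 to 3.43.

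The genes covered a wide range of levels. Mean level in droughted leaves of the first sampling ran from 2.94 to 269 CPM with a median of 32.2, and 5 genes exceeded 100 CPM. In well-watered leaves of that sampling the median was 5.95 CPM, 6 genes were below 1 CPM and 0 exceeded 100 CPM. Together the 31 genes took 0.134% to 0.176% of all counts in the droughted leaves and 0.0310% to 0.0776% in the well-watered leaves. The differences on the log2(CPM + 1) scale ran from 1.51 to 2.47 with a median of 1.75. The lowest droughted library cleared the highest well-watered library by 0.07 to 1.58, and by less than 0.5 for 8 genes. Bulk tissue was sequenced, so more cells of a type and more RNA per cell cannot be told apart here or in any later comparison.

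The limits of the choice cut through a continuous range. The 3 smallest drought differences inside were 1.512, 1.514 and 1.529, and the 3 largest outside were 1.498, 1.485 and 1.485. The changes with age nearest the upper limit were 0.497, 0.485 and 0.437 inside, and 0.517, 0.531 and 0.545 outside. Near the lower limit they were -0.428, -0.072 and -0.039 inside, and -0.562, -0.704 and -0.711 outside. Few genes lay at the lower limit: 27 of the 31 changes with age were positive, with a median of 0.30. The median over 32307 tested leaf genes was 0.13, and with TMM scaling, which balances libraries over most genes, the medians became 0.05 for the 31 genes and -0.08 for all. The label of stability with age therefore holds as a limit of 0.5 on this scale, not as an absence of change.

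MD03G1066000 had the largest drought difference. It stood at 48.7, 47.5 and 6.47 CPM in droughted leaves and at 2.98, 4.30 and 4.06 CPM in well-watered leaves (blocks 1 to 3). Blocks 1 and 2 were far above every well-watered library, and block 3 only just. MD02G1138900, the next in size, stood at 7.51, 6.90 and 0.629 CPM in droughted leaves and had no count in any well-watered library of that sampling. Its 571 counts against 0 put it at least 189-fold higher, taking 3 counts over the group as the floor. MD03G1066000 was far more abundant in roots, as described further on. MD02G1138900 averaged 5.01 CPM in these droughted leaves and 2.08 CPM in droughted roots of the first sampling. Even so, this gene was called higher in root in both leaf against root tests described further on. Drought plants after the third drought had means of 0.220 CPM (leaf) and 2.28 CPM (root). Next-year plants of the well-watered regime had means of 0.0624 CPM (leaf) and 5.09 CPM (root).

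The highest levels in droughted leaves belonged to MD03G1240600 and MD13G1013800. MD03G1240600 stood at 219, 242 and 347 CPM in droughted leaves and at 42.1, 172 and 68.2 CPM in well-watered leaves. The well-watered library of block 2 came close to the droughted ones. MD13G1013800 stood at 78.6, 233 and 137 CPM against 41.1, 67.5 and 37.5 CPM. The lowest droughted library and the highest well-watered library were close for this gene too.

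By edgeR's quasi-likelihood test, 23 of the 31 genes were called higher in this contrast (adjusted p under 0.05), where 5.13% of 32307 tested genes were called higher, and 0 were called lower, where 6.67% were. Nothing is read from these counts, since the contrast chose the genes. The 8 without a call included MD03G1240600, with a log2 change of 1.48 (SE 0.57, adjusted p = 0.1001).

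After the third drought the regimes differed by less than 0.5 for 22 of the 31 genes, where 30957 of 32307 tested genes did. In each regime 4 of the 31 had a mean below 1 CPM, where the log2(CPM + 1) scale leaves little room for such a difference. Of the 31, more were lower by at least 0.5 in the drought regime than higher. In leaves of the drought regime their mean was 3.43, 2.70 and 2.57 in blocks 1, 2 and 3, and in well-watered leaves of the same age it was 3.19, 3.38 and 2.86. Droughted leaves were on the higher side in block 1 and on the lower side in blocks 2 and 3, so the groups overlapped. Within blocks, 19, 4 and 11 of the 31 genes were higher in the droughted library. The differences between regime means, on the log2(CPM + 1) scale, were at or above 0.5 for 1 gene and at or below -0.5 for 8. Over 32307 tested genes, 674 lay between 0.5 and 1.5 and 2 above, while 612 lay between -0.5 and -1.5 and 62 below. The median over the 31 genes was -0.28, while the median over all tested genes was 0.10. By edgeR, the median log2 changes were -0.53 and -0.004 in that order.

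No gene was called in this contrast. Of all 32307 tested leaf genes 0 were called by edgeR in either direction (0% higher, 0% lower), with 727 at an unadjusted p under 0.05, of which 3 were among the 31. DESeq2 called 0 of the 31. Some of the 31 had few counts here, so the lack of a call says little for them. MD13G1124300 had 19 counts in drought leaves and 33 in well-watered leaves. The well-watered libraries of this sampling were read when the genes were chosen, and the droughted ones were not. For 1 gene every droughted library was above every well-watered one, which held for 2.68% of tested genes, and for 1 gene every droughted library was below, which held for 0.854%.

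These 2 genes were MD13G1013800 and MD15G1236600. MD13G1013800 stood at 81.0, 71.9 and 181 CPM in droughted leaves and at 54.4, 61.8 and 62.3 CPM in well-watered leaves. Each droughted library was above each well-watered one, and the library of block 3 carried most of the gap. Its edgeR log2 change was 0.75 (SE 0.41, adjusted p = 1). MD15G1236600 went the other way, with 6.75, 5.79 and 5.93 CPM in droughted leaves and 12.3, 8.21 and 9.23 CPM in well-watered leaves. Its edgeR log2 change was -0.81 (SE 0.26, adjusted p = 1).

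**Figure D2:**
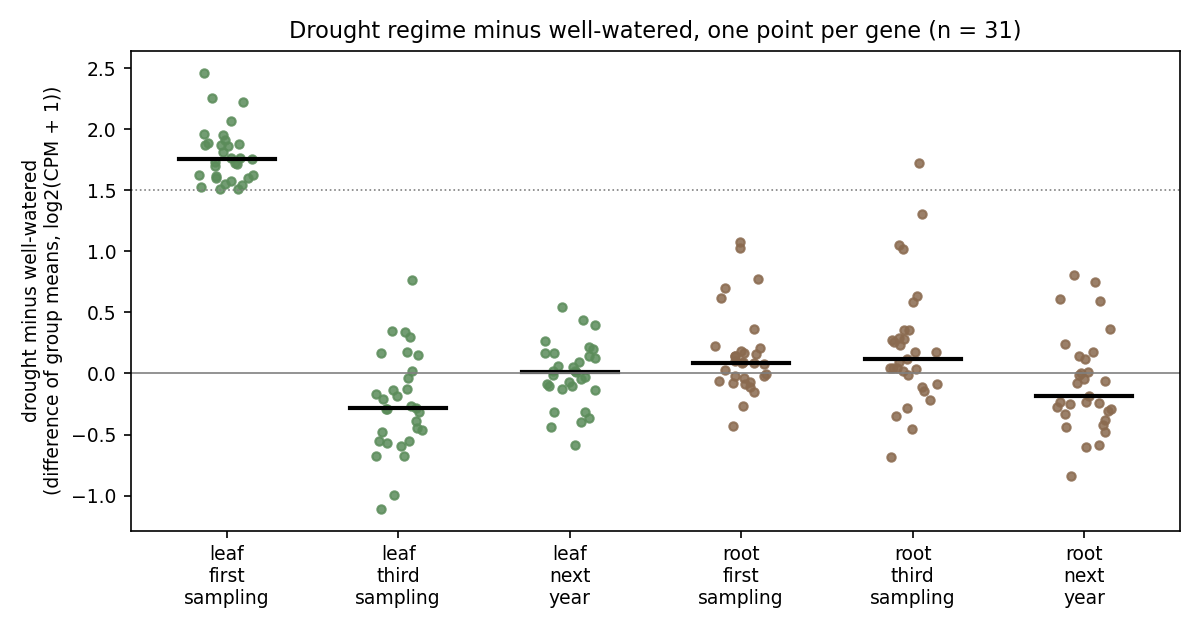
Drought regime minus well-watered for each of the 31 genes, as differences of group means of log2(CPM + 1), at each sampling of leaf and root. Each point is a gene, thick bars are medians and the dotted line marks 1.5. The points of the first leaf sampling lie at 1.51 to 2.47 because that contrast chose the genes, and the medians elsewhere lie between -0.28 and 0.11.

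The droughted leaves themselves were lower after the third drought than after the first. All 31 genes had a lower mean in droughted leaves of the third sampling than in those of the first, 23 of them by at least 1.5, and the median difference was -1.78 on the log2(CPM + 1) scale. For 26 genes the groups did not overlap, in a direction where 6.24% of tested genes did not overlap. The droughted leaves of the first sampling had been chosen for high values, so no test is attached to this. Against well-watered leaves of the first sampling, the droughted leaves of the third lay within 0.5 for 23 genes, at or above 0.5 for 3 and at or below -0.5 for 5, with a median of 0.07. Over all tested genes, 24108 of 32307 lay within 0.5 in this comparison.

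The spread within the droughted leaves of the third sampling lay along blocks. The library of block 1 was the highest of its group for 22 of the 31 genes, against 30.6% of all tested genes. It also had the largest sum over 28 genes that are abundant in roots and scarce in leaves (a list drawn after the values were seen, from next-year libraries, without any of the 31): 847 CPM, against 134 and 142 CPM in blocks 2 and 3. The part of this in the result was not tested. MD03G1066000 stood at 22.2 CPM in that library and at 1.04 and 2.5 CPM in the others.

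The 213 genes that met the drought criteria and also rose with age are the nearest group for comparison. Their median difference between regimes after the third drought was -0.73 on the log2(CPM + 1) scale, and 15 of 213 were higher in drought leaves, while 8 of the 31 were. Both groups were chosen on the well-watered leaves of the third sampling, high in the larger group and level in the smaller one, so the gap between these medians was not tested. From droughted leaves of the first sampling to those of the third, 23 of 31 genes and 90 of 213 fell by at least 1.5. Over all tested genes, 324 of 32307 did. Both lists were chosen for high values in the starting group, and the 213 also for a rise with age. These counts are therefore a description only.

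In the next year, ahead of any new stress, leaves of the former drought regime and well-watered leaves differed by less than 0.5 for 29 of the 31 genes. The mean was 3.11, 2.78 and 2.90 in blocks 1 to 3 of the drought regime and 2.88, 2.91 and 3.02 in well-watered leaves. The group means were 2.93 ± 0.17 and 2.94 ± 0.07 (SD, n = 3 each), and the groups overlapped. The median difference was 0.01 on the log2(CPM + 1) scale, and 32058 of 32307 tested genes differed by less than 0.5. In each regime 7 of the 31 genes had a mean below 1 CPM, where this scale leaves little room for a difference of 0.5. By edgeR, 0 of 32307 genes were called higher or lower (0% in each direction). Its unadjusted p was under 0.05 for 356 genes, none of them (0) among the 31, and DESeq2 called 0 of the 31. For genes with few counts this says little: MD13G1124300 had 5 counts in leaves of the drought regime and 11 in well-watered leaves.

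Among genes of at least 1 CPM the smallest p values in each direction belonged to MD02G1254300 and MD13G1013800. MD02G1254300 stood at 27.5, 13.9 and 27.0 CPM in leaves of the drought regime and at 15.7, 12.6 and 22.2 CPM in well-watered leaves. The groups overlapped, and the edgeR log2 change was 0.46 (SE 0.45, adjusted p = 1). MD13G1013800 stood at 32.8, 32.3 and 18.0 CPM in the drought regime and at 47.8, 45.7 and 30.9 CPM in well-watered leaves. Every block had the drought library lower, the opposite order to that after the third drought, with an edgeR log2 change of -0.60 (SE 0.41, adjusted p = 1).

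The limit on change with age did not carry over to the next season. Between the first sampling and the next year, well-watered leaves changed by less than 0.5 on the log2(CPM + 1) scale for 16 of the 31 genes, rose by 0.5 or more for 6 and fell by 0.5 or more for 9. Over all tested genes, 22746 of 32307 changed by less than 0.5. The changes ran from -2.30 to 1.57 with a median of -0.05. For 6 genes every next-year library was above every first-sampling library, where 22.2% of tested genes were, and for 4 every library was below, where 23.8% were. The first-sampling libraries were those read when the genes were chosen.

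MD13G1284800 had the largest fall. It stood at 23.6, 74.1 and 39.8 CPM in well-watered leaves of the first sampling, at 57.6, 63.0 and 19.0 CPM in the third, and at 9.25, 6.06 and 7.80 CPM in the next year. The next-year libraries were below all of the earlier ones. MD02G1124700 had the largest rise, from 5.89, 14.2 and 7.17 CPM at the first sampling to 26.3, 25.4 and 30.3 CPM in the next year, again with no overlap. Both were picked for their extremes after the values were seen.

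Leaves of the drought regime in the next year and after the third drought were not used in choosing the genes, so their contrast could be tested. The test took its spread from all leaf libraries, including those that chose the genes. Between these samplings, 3 of the 31 genes rose by edgeR (adjusted p under 0.05), where 7.89% of tested genes did, and 3 fell, where 6.31% did. These shares of the 31 are near the background. The median edgeR log2 change was 0.10 over the 31 genes and -0.04 over all tested genes, while the median difference on the log2(CPM + 1) scale was -0.08 and -0.23, so the sign of the former depends on the scale. The 3 that fell were 0 to 2 when a library was left out, and 0 without the next-year library of block 3.

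MD15G1236600 showed the firmest of these changes. It stood at 6.75, 5.79 and 5.93 CPM after the third drought and at 35.8, 20.3 and 33.0 CPM in the next year. All next-year libraries were well above all earlier ones, with an edgeR log2 change of 2.58 (SE 0.27, adjusted p = 1.8e-04), called under all 12 alternatives run. Well-watered leaves of the next year stood at 31.8, 28.8 and 32.9 CPM, so next-year leaves of both regimes had levels like those of droughted leaves at the first sampling, at 35.4, 33.0 and 28.2 CPM. MD02G1124700 rose likewise, from 12.9, 6.87 and 4.50 CPM to 45.8, 28.9 and 23.6 CPM, with an edgeR log2 change of 2.29 (SE 0.51, adjusted p = 0.0101).

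The falls were smaller in level or more variable. MD13G1013800 went from 81.0, 71.9 and 181 CPM to 32.8, 32.3 and 18.0 CPM, with no overlap and an edgeR log2 change of -1.73 (SE 0.42, adjusted p = 0.0156), called under 10 of 12 alternatives. MD02G1081000 went from 4.55, 0.640 and 1.69 CPM to 0.469, 0.0926 and 0.242 CPM. Its groups did not overlap either, and its edgeR log2 change was -2.70 (SE 0.76, adjusted p = 0.0293), but it was called under only 7 of 12 alternatives.

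**Figure D3:**
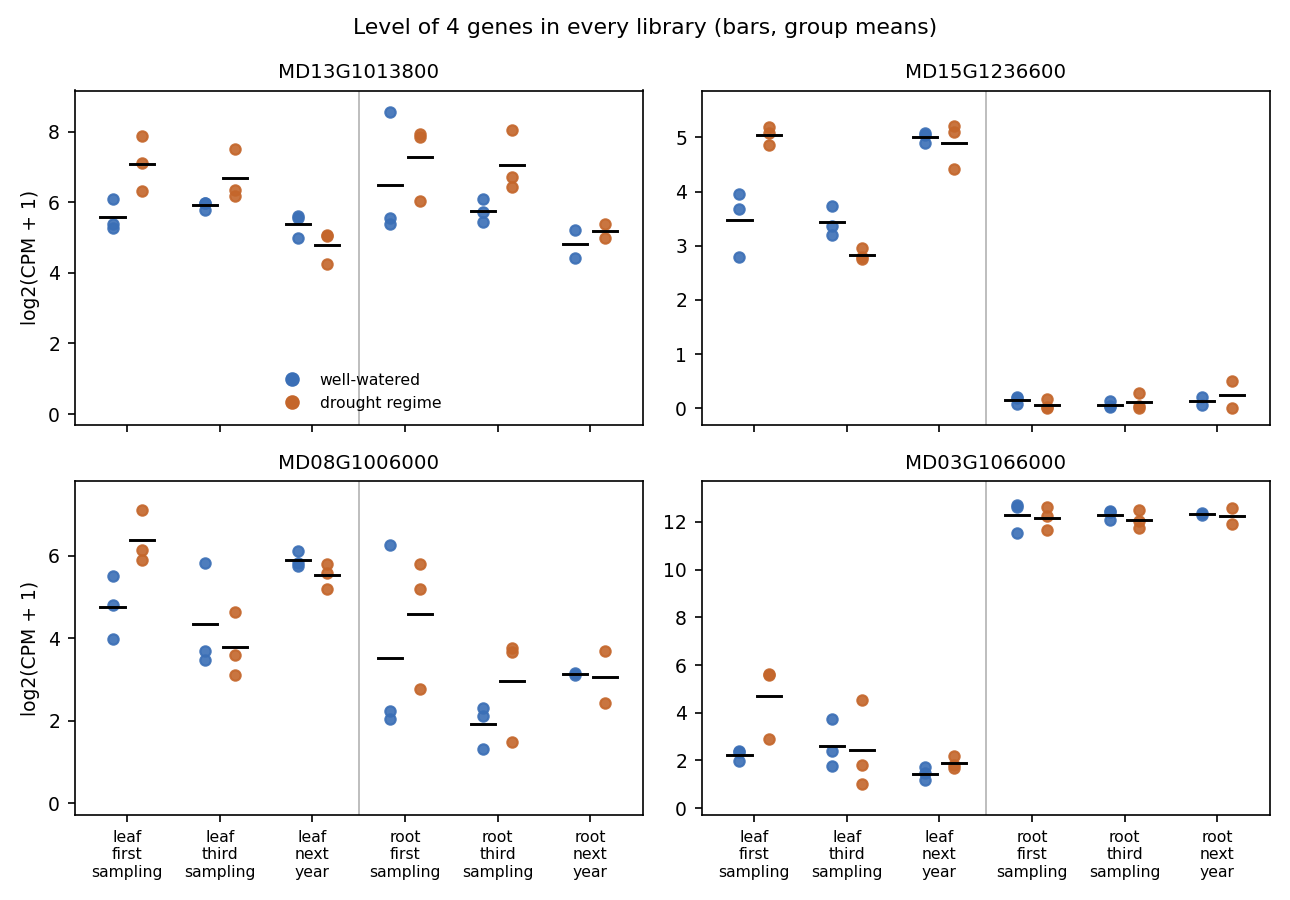
Level of 4 of the 31 genes in every library, on the log2(CPM + 1) scale, by tissue, sampling and regime. Points are libraries and bars are group means. MD15G1236600 is near 0 in every root library, MD03G1066000 is far higher in root than in leaf, and MD13G1013800 and MD08G1006000 each have a well-watered root library of the first sampling far above the other 2.

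In roots the 31 genes ranged from a mean of 0.0148 CPM to a mean of 4951 CPM. Averaged over all root libraries, 7 genes were below 1 CPM, 7 between 1 and 10 CPM, 12 between 10 and 100 CPM and 5 above 100 CPM. For 6 of them every root library was below 1 CPM. For 12 the root mean was above the mean of droughted leaves at the first sampling. The 31 genes took 0.452% to 0.826% of root counts, but 0.105% to 0.161% without MD03G1066000.

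Leaf and root were tested against each other in next-year well-watered plants and in drought plants after the third drought, neither of which had been read as a pair when the genes were chosen. In the next year, 11 of the 31 genes were higher in leaf by edgeR (adjusted p under 0.05), where 27.6% of 35665 tested genes were, and 14 were higher in root, where 30.2% were. After the third drought, 9 were higher in leaf, where 27.0% were, and 15 higher in root, where 28.1% were. Of the 31, 8 were higher in leaf in both tests, 14 were higher in root in both, 5 were called in 1 test only and 4 in neither. With the next-year root library of block 2 or block 3 left out, 7 rather than 11 were called higher in leaf in the next year.

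**Figure D4:**
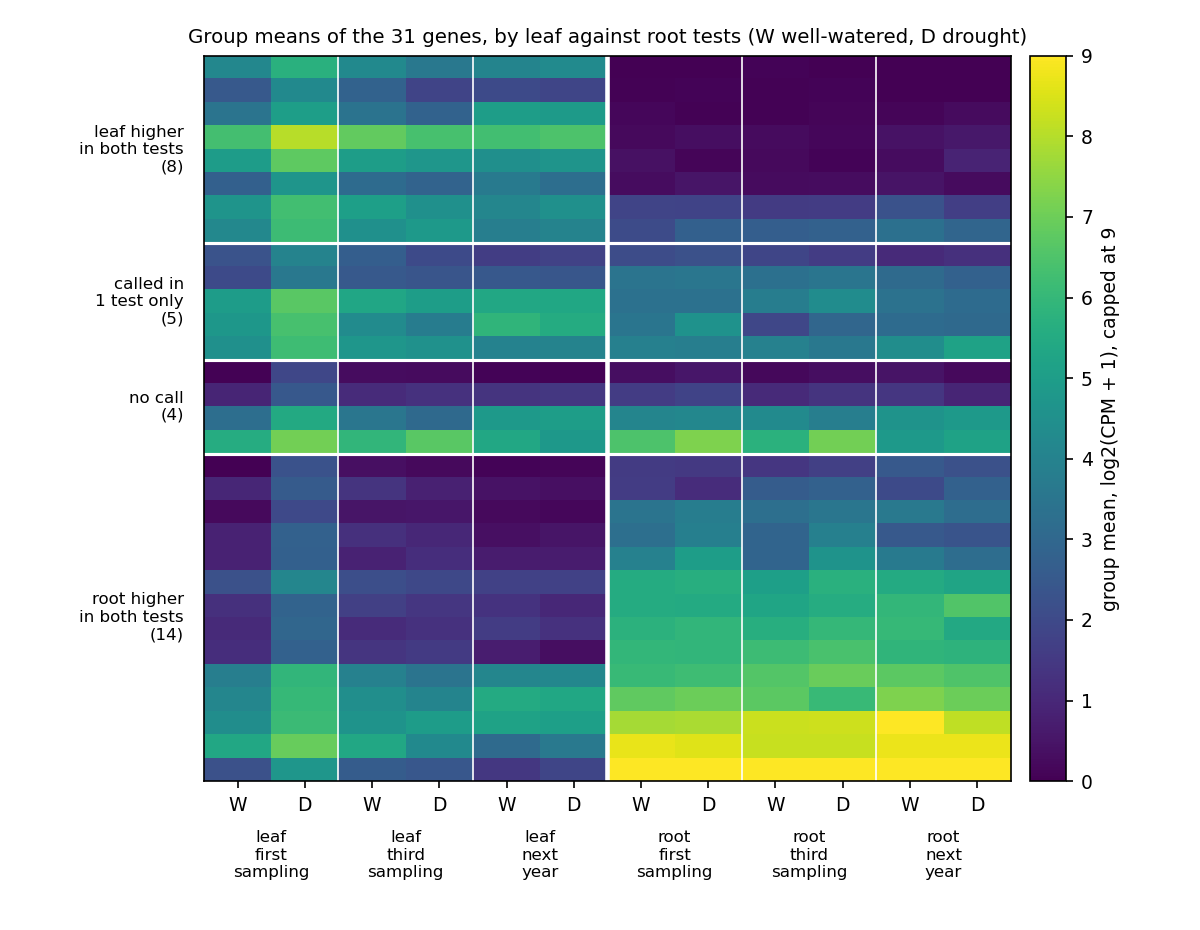
Group means of the 31 genes on the log2(CPM + 1) scale, capped at 9 for colour, in the 12 groups. Rows are genes, ordered by the outcome of the 2 leaf against root tests and then by root level. In leaf the brightest column is the droughted group of the first sampling, where the mean over the genes is 4.70, and the 14 root-higher genes are brighter in every root group than in the next-year leaf groups.

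The 8 genes higher in leaf had a median of 62.6 CPM in droughted leaves of the first sampling, with a range of 19.5 to 269 CPM, and root means of 0.0148 to 6.19 CPM. Among them MD02G1273700 stood at 14.4, 13.2 and 20.2 CPM in next-year well-watered leaves and had no count in the next-year well-watered roots. Its 2405 counts in leaf against 0 in root put it at least 500.1-fold higher, taking 3 counts over the group as the floor. After the third drought it had 1527 counts against 0, or at least 559-fold more. MD15G1236600 stood at 31.8, 28.8 and 32.9 CPM in next-year well-watered leaves and at 0.155 and 0.0491 CPM in roots, an edgeR log2 difference of 8.59 (SE 0.85, adjusted p = 3.2e-09). MD03G1240600, the most abundant of the 31 in droughted leaves, was below 1 CPM in every root library and was higher in leaf after the third drought by 10.00 on edgeR's log2 scale (SE 0.90, adjusted p = 5.7e-10).

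The 14 genes higher in root had lower levels in droughted leaves of the first sampling, with a median of 8.39 CPM and a range of 2.94 to 123 CPM. Their root means ran from 2.79 to 4951 CPM. MD03G1066000 was the most abundant, at 5281 and 4982 CPM in the next-year well-watered roots and 1.24, 1.78 and 2.27 CPM in leaves. Every root library was far above every leaf library, with an edgeR log2 difference of -11.04 for leaf against root (SE 1.13, adjusted p = 5.4e-09). MD02G1081000 stood at 54.6 and 61.5 CPM in those roots and at 0.637, 0.648 and 0.679 CPM in leaves. MD07G1227800 stood at 47.9, 71.5 and 72.7 CPM in roots after the third drought and at 2.98, 1.06 and 0.732 CPM in leaves of the same regime and sampling.

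**Figure D5:**
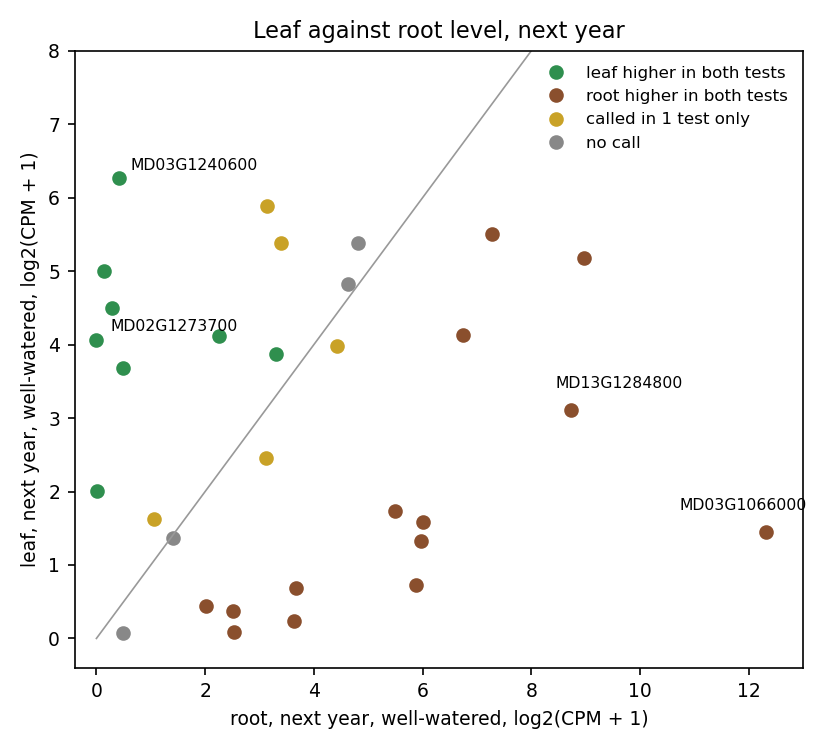
Mean level of each of the 31 genes in next-year well-watered leaves (y axis) against next-year well-watered roots (x axis), both on the log2(CPM + 1) scale. Colours give the outcome of the 2 leaf against root tests, and the line marks equal levels. The 14 root-higher genes lie to the right of the line, with MD03G1066000 farthest out.

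The same 28 root-abundant genes, a list drawn after the values were seen, were also summed in leaves of the first sampling. They summed to 557, 892 and 357 CPM in droughted leaves of blocks 1, 2 and 3 and to 1174, 590 and 480 CPM in well-watered leaves, while root libraries ran from 21032 to 49876 CPM. The groups overlapped. The part of root RNA in the leaf levels of the root-rich genes was not tested. In leaves of the next year the 28 genes summed to 43.5 to 71.8 CPM.

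Root drought contrasts gave no called gene. After the first drought the mean of the 31 genes was 3.96, 3.53 and 3.85 in droughted roots of blocks 1 to 3 and 3.43, 4.001 and 3.43 in well-watered roots. The droughted roots were higher in blocks 1 and 3 and lower in block 2, the pair that stood apart. The differences lay within 0.5 for 26 genes and at or above 0.5 for 5. Over 33541 tested genes, 31866 lay within 0.5, 1171 between 0.5 and 1.5 and 6 above. The median over the 31 was 0.09, against 0.10 over all tested genes. The edgeR log2 changes had medians of -0.05 over the 28 of the 31 that were tested and -0.01 over all tested genes. The sign thus differs between the measures, which for the 31 also differ in the genes covered. For 1 gene every droughted library was above every well-watered one, where 6.96% of tested genes were.

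Without the block 2 pair, 12 of the 31 genes differed by 0.5 or more toward higher in droughted roots, 3 by 0.5 or more toward lower, and 16 by less. Over all 33541 tested genes 14.1% differed by 0.5 or more toward higher, and 2087 toward lower. The median over the 31 was 0.12 and over all tested genes 0.14, so the medians did not move with the count. This alternative was chosen after the values were seen, leaves 2 libraries per group, and gave 0 calls by edgeR among those of the 31 that were tested.

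MD13G1013800 and MD08G1006000 show what the pair does. MD13G1013800 stood at 229, 64.5 and 244 CPM in droughted roots of blocks 1 to 3 and at 41.1, 375 and 45.6 CPM in well-watered roots. Block 2 had the reverse order of blocks 1 and 3. Its difference on the log2(CPM + 1) scale was 0.78 over all blocks and 2.42 without block 2. MD08G1006000 stood at 35.5, 5.82 and 54.5 CPM in droughted roots and at 3.69, 76.2 and 3.10 CPM in well-watered roots, again with block 2 reversed, and its difference was 1.07 over all blocks and 3.36 without block 2. Both were picked after the values were seen.

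After the third drought the mean over the genes was 3.51, 3.82 and 3.87 in droughted roots and 3.33, 3.51 and 3.70 in well-watered roots, higher in the drought library of every block although the groups overlapped. The differences were positive for 22 of the 31 genes and for 53.3% of tested genes, with medians of 0.11 and 0.02. For 6 of the 31 genes they were at or above 0.5, 1 of these above 1.5, and for 1 gene at or below -0.5. Over 33541 tested genes, 31105 lay within 0.5, 1162 between 0.5 and 1.5 and 78 above. For 3 genes every droughted library was above every well-watered one, where 3.36% of tested genes were. The gene above 1.5 was MD11G1093100, at 6.41, 29.3 and 64.0 CPM in droughted roots and 0.716, 7.01 and 28.5 CPM in well-watered roots, higher in each block but with groups that overlapped. MD13G1013800 had the smallest p, with 85.8, 105 and 264 CPM in droughted roots and 42.5, 52.3 and 68 CPM in well-watered roots. The groups did not overlap, and the edgeR log2 change was 1.43 (SE 0.76, adjusted p = 1). The smallest p toward lower belonged to MD04G1172700, at 84.4, 90.9 and 36.4 CPM against 156, 145 and 52.0 CPM, where the drought library was lower in each block and the groups overlapped.

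Of 33541 root genes tested, which included 28 of the 31, edgeR called 0 after the first drought, after the third, in the next year and for the first and the third averaged (0% higher and 0% lower each time). Unadjusted p was under 0.05 for 340, 936, 739 and 939 of them in that order, and for 0, 0, 1 and 1 of the 28. DESeq2 called 0 of the 28 in each. Averaged over the first and the third drought, 19 of the 31 differences were positive, where 65.5% of tested genes were. The medians were 0.11 over the 31 and 0.06 over all tested genes, and 4 of the 31 were at or above 0.5, where 1.71% of tested genes were. Without the block 2 pair of the first sampling, 22 were positive, where 21618 of 33541 tested genes were. The medians were then 0.13 and 0.07, and 9 of the 31 were at or above 0.5, where 5.39% of tested genes were. Among genes of at least 1 CPM the smallest p toward higher in that average belonged to MD04G1066300, with a log2 change of 0.60 (SE 0.37, adjusted p = 0.986). Without the block 2 pair the change was 0.82 (adjusted p = 0.524). MD04G1066300 stood at 13.7, 3.10 and 4.25 CPM in droughted and 2.89, 3.77 and 2.96 CPM in well-watered roots at the first sampling, and at 2.62, 9.37 and 7.76 CPM against 7.03, 4.39 and 5.27 CPM at the third.

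In next-year roots the drought regime had libraries of blocks 1 and 3 and the well-watered regime of blocks 2 and 3. The mean over the genes was 3.42 and 3.84 in the drought regime and 3.78 and 3.65 in well-watered roots, so the groups overlapped. Differences were positive for 10 of the 31 genes and for 29.6% of tested genes, with medians of -0.18 and -0.12. The edgeR log2 changes had medians of 0.17 over the 28 genes tested of the 31 and 0.02 over all tested genes. The sign thus differs between the measures, which for the 31 also differ in the genes covered. In block 3, the only block with both regimes, 15 of 31 genes were higher in the drought library.

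Changes of root levels with time passed the test for 1 of the 31 genes. Between the first and the third sampling of well-watered roots, 23 of 31 genes differed by less than 0.5 (24 without the block 2 pair). Over all tested genes, 31120 of 33541 did (30978 without that pair). By edgeR, 0 of 33541 tested genes were called (0% in each direction), with 1872 at an unadjusted p under 0.05, 1 of them among the 28. DESeq2 called 0 of the 28. The median difference over the 31 was -0.11, and 0.03 without that pair. The gene with p under 0.05 was MD08G1006000, at 3.69, 76.2 and 3.10 CPM at the first sampling and 1.49, 3.95 and 3.30 CPM at the third. Its edgeR log2 change was -3.15 (SE 1.19, adjusted p = 0.873), and -0.20 without block 2 of the first sampling, whose well-watered library carried the difference.

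From the third sampling to the next year, averaged over regimes, 1 of the 28 was called higher, where 1.30% of tested genes were, and 0 lower, where 1.10% were. Unadjusted p was under 0.05 for 8 of the 28 and for 6470 of 33541 tested genes. The gene called was MD13G1096700, at 20.4 and 60.2 CPM in the drought regime and 20.9 and 20.1 CPM in well-watered roots of the next year, against 10.9, 14.6 and 8.77 CPM and 20.3, 16.0 and 9.28 CPM after the third drought. Its groups overlapped by a narrow margin, and its log2 change was 1.19 (SE 0.28, adjusted p = 0.0445, and 0.0699 with sowing block as a term, which ended the call). The smallest p toward lower belonged to MD02G1081000, with a log2 change of -0.38 (SE 0.15, adjusted p = 0.187). MD13G1013800, picked after its values were seen, fell short of a call as well: it stood at 85.8, 105 and 264 CPM in roots of the drought regime after the third drought and at 30.5 and 41.0 CPM in the next year, with no overlap, and its log2 change averaged over regimes was -1.45 (SE 0.62, adjusted p = 0.220).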

How the data were processed

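RNA of apple leaves and roots was sequenced as 100 bp pairs from about 50 mg of tissue with a stranded mRNA kit, per the labels' protocols. The deposited values are estimated counts in whole numbers for 52311 identifiers in 34 libraries, of which 8708 had no count anywhere, and it left 0 columns unused. The submitters' processing notes name FastQC, Salmon, DESeq and DESeq2 without versions, and neither they nor the labels state the genome build. Salmon divides shared reads among similar transcripts, which makes values of near-identical copies uncertain. The table pairs no identifier with a name, and the RefSeq table of another assembly matched 0 of the 31, so no names, sequences or positions are given, and at most a few identifiers per comparison.

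Levels are CPM on column sums. Groups were set by tissue, regime and sampling. Counts were tested with edgeR 4.0.16 in R 4.3.3 (TMM scaling, filterByExpr, glmQLFit with robust dispersions, glmQLFTest), all libraries of a tissue in a single fit, or all 34 for leaf against root, with Benjamini-Hochberg adjustment over all tested genes and a threshold of 0.05. The standard error is the size of the log2 change divided by the square root of F. The steps were tested on simulated data. All 31 genes passed the low-count filter in leaf and in the joint fit and 28 did in root. The filter does not ensure enough counts in each contrast. MD13G1124300 had 391 counts in droughted leaves of the first sampling, which were read when the genes were chosen. After the third drought it had 19 counts in drought leaves and 33 in well-watered leaves. In next-year leaves it had 5 and 11 in that order. For genes this low the lack of a call says little, although they count among the 31. Libraries within a group are from different sowing blocks, and the regimes share these blocks. The main fit had no term for the block. Its p-values measure the spread between libraries within groups, taken over all groups of the fit.

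Same-numbered libraries are paired, because the labels tie the number to the sowing block. Their deviations from group means correlated between 0.23 and 0.73 in leaf and between 0.28 and 0.75 in roots of the third sampling, but between -0.80 and -0.30 in roots of the first. Next-year roots share only block 3.

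The members and lists were chosen with earlier results of these data known. Genes named in a comparison were the 2 largest called changes in each direction with groups that did not overlap, or otherwise the smallest p in each direction with a mean of at least 1 CPM. For the first drought in leaf they were the 2 largest differences and the 2 highest levels. Others are said to be picked after their values were seen. Alternatives were RLE scaling, no filter, a filter of 1 CPM in 3 libraries, DESeq2 1.42.0, the block, fits of the compared groups alone, each library left out, and other settings of the rule.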

Additional observations from a re-analysis of the deposited data

Results flagged for a closer look

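For 4 of the named genes, the regimes after the third drought in leaf are set beside next-year leaf or roots after the third drought. In each case the difference went one way in every block of one and the other way in every block of the other. The first leaf sampling was left out, since the choice of genes fixed its direction. Other named genes, such as MD02G1081000 and MD02G1254300, reversed in this way between other pairs of tissue and sampling. How common such reversals were over all genes was not counted. None of these differences between samplings was tested, and the values are means over blocks on the log2(CPM + 1) scale. For MD13G1013800 the drought regime was higher by 0.77 in leaf after the third drought and differed by -0.59 in leaf of the next year, a shift of -1.36 (-1.355). For MD02G1273700 the same samplings gave -0.67 and 0.26, a shift of 0.94 (0.9368). For MD08G1006000 the difference was -0.55 in leaf and 1.05 in root after the third drought, a gap of 1.61 (1.607). For MD15G1290300 it was -0.48 in leaf and 0.36 in root after the third drought, a gap of 0.84 (0.8408). For a single gene, groups of 3 libraries are too small to tell an outlying library from ordinary spread.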

How the results depend on the processing

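The list depends on how it was cut. The 31 genes became 47 with TMM-scaled CPM (27 shared), 36 with a pseudocount of 0.5 (26 shared), 20 with a pseudocount of 2 (18 shared) and 12 with an age window of 0.25. Leaving out a library gave 27 to 57, sharing 16 to 31. It was 57 without the droughted leaf library of block 3 and 50 without that of block 1. Without the well-watered leaf library of block 2 at the first sampling it was 38, with 16 shared.

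Counts on the TMM list are out of 47 genes, so a larger count there need not be a larger share. Shares over all tested genes, given above for the main fit, were not set beside the alternatives. Calls in the contrast that chose the genes were 23 in the main fit and 13 in a fit of the compared groups alone. They were 22 with the replicate block, 29 by DESeq2, and 36 among the 47 TMM-chosen genes. With a library left out they were 10 to 25 (10 without well-watered block 1, 13 without droughted block 2). In leaf between the third drought and the next year, 6 genes of the TMM list rose, 1 fell in the fit of the compared groups alone, and leaving out a library gave 3 to 4 rises and 0 to 2 falls. For root between these samplings the 1 rise became 0 with the replicate block, 3 by DESeq2, 0 in the compared groups alone, 2 on the TMM list and 0 to 2 with a library left out. Leaf against root in the next year gave 18 and 22 calls on the TMM list and 7 to 10 and 11 to 12 with a library left out. After the third drought it gave 15 leaf-higher calls on the TMM list, and 8 to 9 and 13 to 15 with a library left out. Drought contrasts other than the first in leaf had 0 calls among those of the 31 that were tested, under every alternative run. The change of well-watered roots from the first to the third sampling had 0 as well. This was also so with the first-sampling root pair of block 2 left out. The replicate block changed no other call among the counts by over 1.5 times.

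Mean levels moved with the scale by more than their SD in some groups. With TMM the mean became 4.92 in droughted leaves of the first sampling, 3.12 and 3.13 in next-year leaves of the drought and well-watered regimes, 3.55 in droughted roots of the first sampling and 3.57 in next-year well-watered roots. With a pseudocount of 0.5 it became 2.67 and 2.69 in next-year leaves of the drought and well-watered regimes, 3.53 and 3.47 in droughted roots of the first and the third sampling, and 3.24 and 3.47 in well-watered roots of the third sampling and the next year. The cause of these moves was not tested beyond the setting itself. No count of calls or change of a single named gene turned direction under these settings. Some medians did change sign between the log2(CPM + 1) scale and edgeR's, or between column sums and TMM, as given beside them. Among single named genes, 7 calls were lost and 1 gained when a setting was changed, and 23 were lost and 1 gained when a library was left out. Groups of 2 or 3 libraries limit what a contrast can call.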
